A study of Mus musculus with 12 samples.

Results

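The genes described here are those of the hypoxia-inducible factor (HIF) proteins and of the enzymes that tie HIF to oxygen. They are Hif1a, Epas1 and Hif3a, which encode the α subunits, Arnt and Arnt2, which encode the partner subunits, Vhl, the prolyl hydroxylase genes Egln1, Egln2 and Egln3, and Hif1an. These 10 genes were taken by symbol from the 35976 genes of the count table, and all 10 had reads. Of the 10, 8 had more than 3 reads in every one of the 12 libraries, and Hif3a and Egln3 did not.

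Retinal RNA was sequenced from the 3′ end of transcripts in 4 groups of 3 libraries, to ask how the retina of the mouse pup changes in oxygen-induced retinopathy (OIR). The C57BL/6 pups of the group labelled WT OIR were held in 75% oxygen from postnatal day 7 to 12 and breathed room air for the next 3 days. Those of the group labelled WT normoxia were kept at 21% oxygen, and both were taken at postnatal day 15. The groups labelled Casp1 KO normoxia and Casp1 KO OIR came from Caspase1 knockout mice, and the OIR group is likewise labelled as 3 days after OIR. The age and oxygen level of the Casp1 KO pups, the allele and the number of animals per library are not given in the sources used here. The authors state that their study used pups of both sexes, without giving the sex of those sequenced. Nothing says that the libraries of a group came from separate animals, so the p-values measure only the spread between these libraries.

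In a cell with enough oxygen, the prolyl hydroxylases mark the HIF α subunits, the VHL protein binds the marked subunit, and a ubiquitin ligase has it destroyed. When oxygen is short the mark is not made, the α subunit pairs with ARNT or ARNT2, and the pair switches on genes for glycolysis, vessel growth and red cell production. Most of this control acts on protein, which these libraries do not measure. Some parts of the pathway, Egln3 and Egln1 among them, are themselves known targets of HIF in many cells, which forms a negative feedback. The OIR retina loses capillaries during the oxygen phase and is short of oxygen on return to room air.

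Total counts per library ran from 3391203 to 22815830, with WT normoxia replicate 2 the deepest. CPM is the read count scaled by library size, and 3 counts, the limit that a count of 0 allows, equalled 0.131 to 0.885 CPM. The levels below also carry TMM scaling between libraries, which moves these limits slightly. Such limits and the Wilson intervals of read shares below cover counting error only. The summed level of 7 rod markers was between 35550 and 43158 CPM in every library, as the retina label calls for. WT OIR replicate 3 stood apart from its group. Over 11228 genes, its median Pearson's r with the other WT OIR libraries was 0.954. Its highest r with a library of another group was 0.964, with Casp1 KO OIR replicate 3, which is also an OIR library. A highest value is set against a median here, which favours the other groups. Casp1 itself went against the genotype labels. The 6 libraries labelled Casp1 KO held 126 of its reads, and the 6 labelled WT held 7. Where the deletion lies is not given here, and a 3′ read outside the deleted part checks nothing, so groups are called by their labels throughout.

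The stretches of DNA just before the start sites of Egln3, Egln1, Vhl and Hif1a are shown because the first 3 genes passed the test in OIR and Hif1a is the most abundant of the 10. HIF binds sites whose core reads ACGTG or GCGTG. Both words were searched on both strands in the 250 bases before each RefSeq start site of build GRCm38.p6 for 9 of the 10 genes, all but Epas1. The lines run 5′ to 3′ on the gene's strand in lower case, with capitals where a match on either strand lies. Bases annotated as exon are left out of the lines. That of Egln3 covers chr12:54203875-54204124 on the minus strand, Hif1a chr12:73907617-73907866 on the plus strand, Egln1 the 180 bases at chr8:124949325-124949504 on the minus strand and Vhl the 215 bases at chr6:113623744-113623958 on the plus strand.
Egln3: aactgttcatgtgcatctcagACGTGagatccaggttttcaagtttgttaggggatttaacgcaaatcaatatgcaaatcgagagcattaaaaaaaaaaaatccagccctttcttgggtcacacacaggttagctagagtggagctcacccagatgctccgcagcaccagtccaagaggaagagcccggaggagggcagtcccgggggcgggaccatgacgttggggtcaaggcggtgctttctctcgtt
Egln1: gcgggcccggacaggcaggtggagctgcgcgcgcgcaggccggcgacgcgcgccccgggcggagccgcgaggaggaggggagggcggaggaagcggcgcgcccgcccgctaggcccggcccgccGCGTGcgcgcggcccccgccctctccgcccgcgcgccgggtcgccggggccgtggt
Vhl: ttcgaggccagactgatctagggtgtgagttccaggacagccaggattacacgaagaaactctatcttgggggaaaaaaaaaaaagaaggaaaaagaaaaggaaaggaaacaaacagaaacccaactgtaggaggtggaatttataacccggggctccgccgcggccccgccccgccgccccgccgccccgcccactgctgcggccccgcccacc
Hif1a: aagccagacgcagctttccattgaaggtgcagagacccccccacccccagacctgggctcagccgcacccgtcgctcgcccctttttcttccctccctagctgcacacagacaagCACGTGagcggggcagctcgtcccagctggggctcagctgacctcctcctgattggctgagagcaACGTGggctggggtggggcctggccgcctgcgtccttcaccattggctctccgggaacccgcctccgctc

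Egln3 held 1 ACGTG, from -229 to -225 counted from the start site. Egln1 held a GCGTG from -126 to -122, and an ACGTG from -68 to -64 in the exonic bases not shown. Hif1a held 3 ACGTG matches. A pair of them, on opposite strands, overlap from -135 to -130 and form the palindrome in capitals, and the other lies from -70 to -66. No match lay in the 250 bases of Vhl, Arnt2 or Hif1an. Arnt held 1 GCGTG and Hif3a 2, and Egln2 has 2 annotated promoters with 4 matches and 1. Of all 32851 promoters of the same length, 16.6% held ACGTG, 28.2% GCGTG and 38.6% either, so a match by itself is common and is given as a description.

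Reads of a 3′ library do not grow with transcript length, so levels of different genes can be set side by side in CPM. Hif1a led with 640 ± 39.1 CPM (SD, n = 12 libraries), followed by Epas1, which encodes HIF-2α, with 141 ± 16.3, and Egln1, the main prolyl hydroxylase of most cells, with 87.1 ± 15.8. Next came Hif1an, which encodes the asparaginyl hydroxylase FIH, with 57.01 ± 5.77 CPM (SD, n = 12), then Egln2 with 46.1 ± 6.62 and Vhl with 36.4 ± 10.96. Arnt had 21.1 ± 6.06 CPM (SD, n = 12), Arnt2 14.9 ± 3.30, Egln3 5.50 ± 4.93 and Hif3a 1.45 ± 0.935. The libraries' ranges did not overlap between Hif1a and Epas1 or between Epas1 and Egln1, and every other neighbour in this order overlapped. Within single libraries, Egln1 was above Hif1an in 12 of 12, Egln2 above Vhl in 10 of 12 and Arnt above Arnt2 in 9 of 12. Hif1a had more reads than 99.3% of the genes with counts, and Hif3a more than 42.6%.

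**Figure D1:**
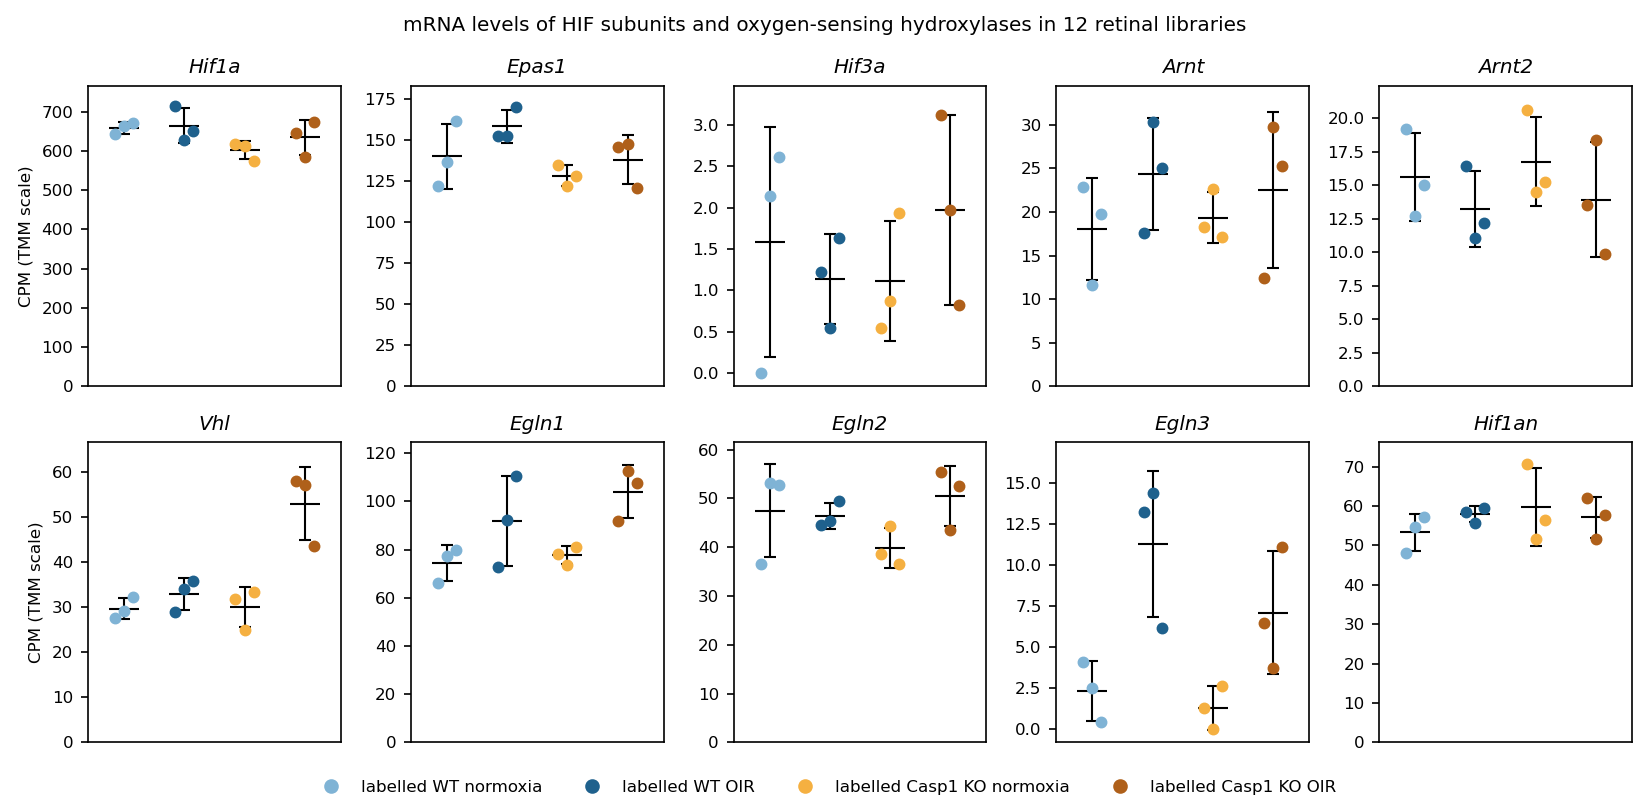
Level of each of the 10 genes in CPM (vertical axis, from 0, scaled for each gene) in 12 retinal libraries, coloured by labelled group; points are libraries and bars the mean ± SD of 3. Egln3 stood higher in OIR under both labels, Vhl in the 3 libraries labelled Casp1 KO OIR, at 43.6 to 58.0 CPM, and Hif1a between 575 and 715 CPM throughout.

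In the libraries labelled WT, Egln3 was the 1 member of 10 that passed the test, and it rose in OIR. Across all genes tested 3.88% passed in either direction and 1.58% rose. Under the Casp1 KO label 3 of 10 passed, Egln3, Vhl and Egln1, and all 3 rose, where 4.64% of all genes passed and 2.61% rose. Over both labels together the same 3 genes passed (4.89% of all genes). The test was edgeR's quasi-likelihood test with Benjamini-Hochberg adjustment over all genes. The median log2 fold change over the 10 members was 0.13 in WT, against 0.04 over all genes, and 0.30 in Casp1 KO, against -0.002.

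Egln3 encodes PHD3, a prolyl hydroxylase known for strong induction by low oxygen. In WT normoxia its level was 4.09, 2.49 and 0.435 CPM, from 23, 56 and 2 reads, and in WT OIR 13.2, 14.4 and 6.18 CPM, from 54, 78 and 34 reads. Every OIR library lay above every normoxia library, which in this comparison held for 1 of the 10 members and, in either direction, for 16.6% of all genes. WT OIR replicate 3, the library that stood apart, was the lowest of its group. The means were 2.34 ± 1.83 CPM (SD, n = 3) and 11.3 ± 4.43, and the log2 fold change was 2.21 (SE 0.469, adjusted p = 0.000257, edgeR's quasi-likelihood test). Without WT OIR replicate 3 it was 2.50, and the adjusted p stayed at 0.0217 or less whichever library was left out.

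Among the libraries labelled Casp1 KO, Egln3 had 1.28, 0 and 2.66 CPM in normoxia, from 7, 0 and 11 reads, and 6.45, 3.72 and 11.1 CPM in OIR, from 29, 17 and 54 reads. The groups again did not overlap, as for 3 of 10 members and 17.2% of all genes in this comparison, although KO OIR replicate 2 at 3.72 CPM lay under the highest WT normoxia library at 4.09. Casp1 KO normoxia replicate 2 held 0 reads of Egln3, which allows up to 0.871 CPM on the scale of these levels. The group means were 1.31 ± 1.33 and 7.09 ± 3.73 CPM (SD, n = 3), a log2 fold change of 2.38 (SE 0.608, adjusted p = 0.00403, edgeR). The call was lost without Casp1 KO normoxia replicate 2 (log2 fold change 1.88, adjusted p = 0.0504) and without Casp1 KO OIR replicate 3 (1.90, adjusted p = 0.195). Over both labels together the log2 fold change was 2.29 (SE 0.386, adjusted p = 4.25e-07), with an adjusted p under 0.05 without any 1 library. The change differed between the labels by 0.16 on the log2 scale, with a 95% interval of -1.28 to 1.60 (adjusted p = 0.9998, edgeR).

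Egln1 encodes PHD2, which sets HIF-1α levels in most cells at normal oxygen. Its WT normoxia libraries had 66.1, 77.6 and 80.0 CPM and its WT OIR libraries 73.0, 92.4 and 110. OIR replicate 1 lay within the normoxia range and the other 2 above it. The means of 74.6 ± 7.45 and 92.0 ± 18.8 CPM (SD, n = 3) gave a log2 fold change of 0.29 (SE 0.156, adjusted p = 0.428, edgeR), a difference that did not pass the test. Among the libraries labelled Casp1 KO, the levels were 78.0, 73.8 and 81.1 CPM in normoxia and 91.8, 113 and 108 in OIR. Here the groups did not overlap. The log2 fold change was 0.44 (SE 0.125, adjusted p = 0.0159, edgeR), from 77.7 ± 3.69 to 104 ± 10.9 CPM (SD, n = 3). The call was lost with all 12 libraries in one fit (adjusted p = 0.0911), and without Casp1 KO normoxia replicate 1 (0.0682) or 2 (0.103) or Casp1 KO OIR replicate 2 (0.143) or 3 (0.0884). Over both labels Egln1 rose by 0.36 on the log2 scale (SE 0.107, adjusted p = 0.0185, edgeR), a call lost without WT normoxia replicate 1, WT OIR replicate 3, Casp1 KO normoxia replicate 2 or Casp1 KO OIR replicate 2, where the adjusted p was 0.0766, 0.0853, 0.0568 and 0.0637. The labels' changes differed by 0.12 (95% interval -0.28 to 0.51).

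Egln2, which encodes PHD1, had 36.6, 53.1 and 52.8 CPM in WT normoxia and 44.6, 45.3 and 49.4 in WT OIR. The OIR values lay inside the normoxia range, and the log2 fold change was -0.05 (SE 0.185, adjusted p = 0.941, edgeR). Under the Casp1 KO label it had 38.7, 44.4 and 36.5 CPM in normoxia and 55.4, 43.6 and 52.4 in OIR, with 2 of 3 OIR libraries above all of normoxia. The log2 fold change of 0.36 (SE 0.170) did not pass, at an adjusted p of 0.307 (0.0355 before adjustment). Exons of Cyp2t4 overlap the 3′ end of Egln2 on the other strand, and the strand setting of the counting is not given in the sources used here, so reads of the pair may be mixed.

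Within a library, the make-up of the prolyl hydroxylase reads needs no normalization. Egln3 made up 2.01 ± 1.75% (SD, n = 3) of the Egln1, Egln2 and Egln3 reads in WT normoxia and 7.76 ± 3.51% in WT OIR. The 3 OIR shares were 10.1% (95% Wilson interval 7.83 to 12.96), 9.44% (7.63 to 11.6) and 3.72% (2.67 to 5.15), and the lowest of them, in replicate 3, lay just under the highest normoxia share of 3.83% (2.56 to 5.68). The difference of 5.75 percentage points had p = 0.2 in a two-sided exact permutation test, which with 3 libraries against 3 cannot go under 0.1. Under the Casp1 KO label the share was 1.10 ± 1.10% (SD, n = 3) in normoxia and 4.34 ± 2.08% in OIR, with all 3 OIR libraries above all 3 in normoxia (exact permutation p = 0.1). Casp1 KO normoxia replicate 2 had 0 Egln3 reads of 407, which allows a share of up to 0.737%. Egln1 kept the largest share in every library, between 55.8% and 70.5%. The share of Egln2 was 37.9 ± 3.17% in WT normoxia and 31.2 ± 2.49% in WT OIR, with all 3 OIR libraries below all 3 in normoxia (exact permutation p = 0.1, n = 3 against 3), and 33.6 ± 3.70% and 31.3 ± 4.44% in Casp1 KO (exact permutation p = 0.6).

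**Figure D2:**
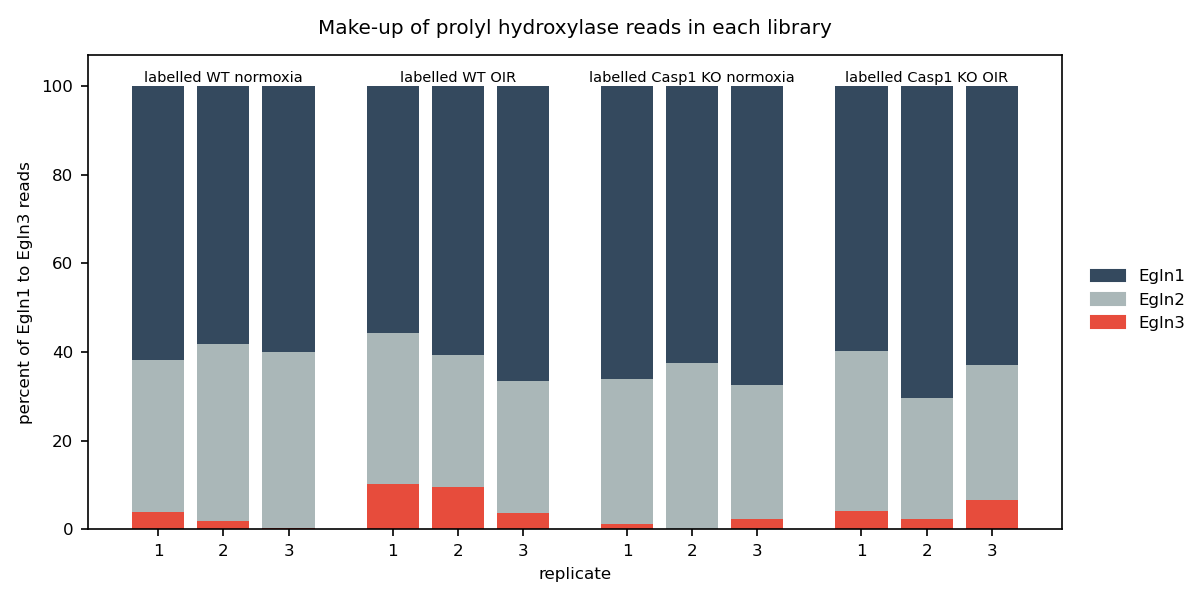
Percent of the summed Egln1, Egln2 and Egln3 reads (vertical axis) that each gene took in each of the 12 libraries (horizontal axis, replicates within labelled groups); each stacked bar adds to the whole. Egln3 took up to 10.1% in WT OIR and up to 6.48% in Casp1 KO OIR, against at most 3.83% in normoxia.

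Vhl encodes the substrate-binding subunit of the ligase that marks hydroxylated HIF α for destruction. In the libraries labelled WT it had 27.7, 29.1 and 32.2 CPM in normoxia and 28.9, 34.1 and 35.8 in OIR, with 2 of 3 OIR libraries above all of normoxia. The log2 fold change was 0.14 with a 95% interval of -0.28 to 0.57 (adjusted p = 0.798, edgeR). Under the Casp1 KO label, the levels were 31.7, 25.0 and 33.3 CPM in normoxia and 58.0, 57.2 and 43.6 in OIR, with no overlap. The mean went from 30.01 ± 4.43 to 52.9 ± 8.09 CPM (SD, n = 3), and the log2 fold change was 0.82 (SE 0.178, adjusted p = 0.000261, edgeR). This call stayed under every setting tried and without any 1 of the 6 libraries, with adjusted p up to 0.0124.

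The 3 libraries labelled Casp1 KO OIR thus held more Vhl than any other library of the 12. Whether the OIR change of Vhl differed between the labels was tested directly. The difference was 0.66 on the log2 scale (95% interval 0.11 to 1.20), and it did not pass, with an adjusted p of 0.352 from edgeR (0.0179 before adjustment). No member passed this test of the difference with edgeR, where 1.13% of all genes passed, or with DESeq2. Vhl was the 1 member with an unadjusted p under 0.05. At least 1249 of all 24484 genes, Vhl included, met that unadjusted cut. Over both labels Vhl rose by 0.48 (SE 0.144, adjusted p = 0.0225, edgeR), and the call was lost without any 1 of the 3 Casp1 KO normoxia libraries or without Casp1 KO OIR replicate 1 or 2, with adjusted p from 0.056 to 0.139.

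Marker genes of other cells moved in the same comparisons. Markers counted as higher or lower had an adjusted p under 0.05, as 3.88% of all genes had in WT and 4.64% in Casp1 KO. In Casp1 KO OIR the summed level of 5 lens markers was 565 to 641 CPM against 312 to 329 in Casp1 KO normoxia, with 3 of 5 higher, and that of 5 retinal pigment epithelium markers 958 to 1039 against 646 to 662, with 3 of 5 higher. Under the WT label the lens sum was 284 to 323 CPM in normoxia and 191 to 424 in OIR, with 0 of 5 passing. The WT pigment epithelium sum was 559 to 602 CPM in normoxia and 658 to 722 in OIR, with 1 of 5 higher. In Casp1 KO, Müller glia also moved. The 8 Müller glia markers summed to 2080 to 2172 CPM in Casp1 KO OIR against 1584 to 1686 in Casp1 KO normoxia, with 5 higher and 1 lower. Under the WT label, the Müller glia sum went the other way, from 2153 to 2301 CPM in normoxia to 1561 to 1572 in OIR, with 3 of 8 lower. The 6 ganglion cell markers summed to 1981 to 2175 CPM in WT normoxia and 1037 to 1291 in WT OIR, with 5 of 6 lower, and to 2186 to 2365 and 1281 to 1318 in Casp1 KO, with 4 of 6 lower. The 5 amacrine cell markers summed to 618.5 to 677.4 CPM in WT normoxia and 400.2 to 494.5 in WT OIR, with 4 of 5 lower, and 0 of 5 passed in Casp1 KO. The 6 microglia markers summed to 38.5 to 50.8 CPM against 69.4 to 71.6 in WT OIR, with 1 higher, and to 28.8 to 43.7 against 70.3 to 83.0 in Casp1 KO OIR, with 2 higher. Of the 3 astrocyte markers only Gfap passed, and it rose by 1.62 on the log2 scale in WT and 2.31 in Casp1 KO. Pax2 stood at -0.86 in WT and 0.25 in Casp1 KO, and Pdgfra at 0.44 and 0.33. Of the 4 red blood cell markers 3 rose in WT, where the OIR libraries spread from 81.6 to 375 CPM, and 0 in Casp1 KO. The 10 endothelial markers are of the cells in which Epas1 is known to be strong. Under the WT label they summed to 139 to 157 CPM in normoxia and 151 to 242 in OIR, with 1 of 10 higher. In Casp1 KO they summed to 150 to 170 CPM in normoxia and 170 to 207 in OIR, again with 1 of 10 higher. Pecam1 passed in WT (log2 fold change 1.42) and stood at 0.25 in Casp1 KO. Flt1 passed in Casp1 KO (0.69) and stood at -0.15 in WT. Of the 7 rod markers 1 rose in WT, and 3 rose and 1 fell in Casp1 KO. Of 5 cone markers 1 fell in WT, and 2 rose and 1 fell in Casp1 KO. Of 5 bipolar cell markers 1 fell in WT and 0 passed in Casp1 KO, and of 5 pericyte markers 0 passed in either. None of the markers in these lists was at 0 over a group. The part of these cells in the changes of Vhl, Egln1 and Egln3 was not tested, and in whole retina fewer cells of a type and less RNA per cell cannot be told apart.

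The HIF α subunits did not pass the test in any of the 6 comparisons, with edgeR or DESeq2, and none had an unadjusted p under 0.05. Hif1a had 643, 663 and 670 CPM in WT normoxia and 715, 628 and 650 in WT OIR, and the OIR libraries fell on both sides of the normoxia ones. Its log2 fold change was 0.002 with a 95% interval of -0.23 to 0.23 (adjusted p = 0.995, edgeR). Under the Casp1 KO label it had 619, 612 and 575 CPM in normoxia and 645, 586 and 673 in OIR, a log2 fold change of 0.09 (-0.06 to 0.23, adjusted p = 0.615). At this precision a change of Hif1a mRNA by more than about 0.23 on the log2 scale lay outside both intervals. The exons of Hif1a overlap those of Gm15283 on the other strand and Gm49321 on its own.

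Epas1 had 122, 137 and 161 CPM in WT normoxia and 153, 152 and 170 in WT OIR, with 1 OIR library above all of normoxia. Its log2 fold change was 0.17 (SE 0.139, adjusted p = 0.610, edgeR) in WT and 0.12 (SE 0.109, adjusted p = 0.653) in Casp1 KO, where the levels were 135, 122 and 128 CPM in normoxia and 146, 147 and 121 in OIR. Of the reads of the 3 α subunits, Epas1 took 17.5 ± 1.72% in WT normoxia and 19.3 ± 1.58% in WT OIR (exact permutation p = 0.2, n = 3 against 3), and 17.6 ± 0.840% and 17.9 ± 2.47% in Casp1 KO (exact permutation p = 0.8). Hif3a, whose protein lacks the strong activation domain of the other α subunits in most forms, had 0 to 48 reads a library. That is 0 to 3.11 CPM, and its log2 fold changes of -0.49 (SE 1.07) in WT and 0.82 (SE 1.04) in Casp1 KO had adjusted p of 0.878 and 0.725. Their 95% intervals ran from -2.60 to 1.61 and from -1.22 to 2.86, so smaller changes of Hif3a were not detectable at this depth.

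Arnt, the common partner of the α subunits and of the dioxin receptor, had 22.9, 11.6 and 19.8 CPM in WT normoxia and 17.6, 30.4 and 25.1 in WT OIR. Its log2 fold change of 0.45 (SE 0.255, adjusted p = 0.468, edgeR) did not pass, nor did that of 0.24 in Casp1 KO (SE 0.244, adjusted p = 0.680). Arnt2, its neuronal relative, had 19.2, 12.7 and 15.003 CPM in WT normoxia and 16.4, 11.05 and 12.2 in WT OIR, with log2 fold changes of -0.25 (SE 0.304, adjusted p = 0.745) in WT and -0.26 (SE 0.285, adjusted p = 0.708) in Casp1 KO. Arnt2 took 47.0 ± 4.80% of the reads of the pair in WT normoxia and 35.9 ± 11.1% in WT OIR, and 46.4 ± 7.02% and 39.5 ± 12.1% in Casp1 KO, with exact permutation p of 0.3 and 0.4 (n = 3 against 3). Exons of Gm30873 overlap those of Arnt2 on the other strand. Hif1an had 48.1, 54.6 and 57.2 CPM in WT normoxia and 58.5, 55.6 and 59.6 in WT OIR, a log2 fold change of 0.11 (SE 0.176, adjusted p = 0.821). In Casp1 KO it had 70.7, 51.7 and 56.5 CPM in normoxia and 62.0, 51.7 and 57.8 in OIR, a log2 fold change of -0.06 (SE 0.150, adjusted p = 0.896).

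**Figure D3:**
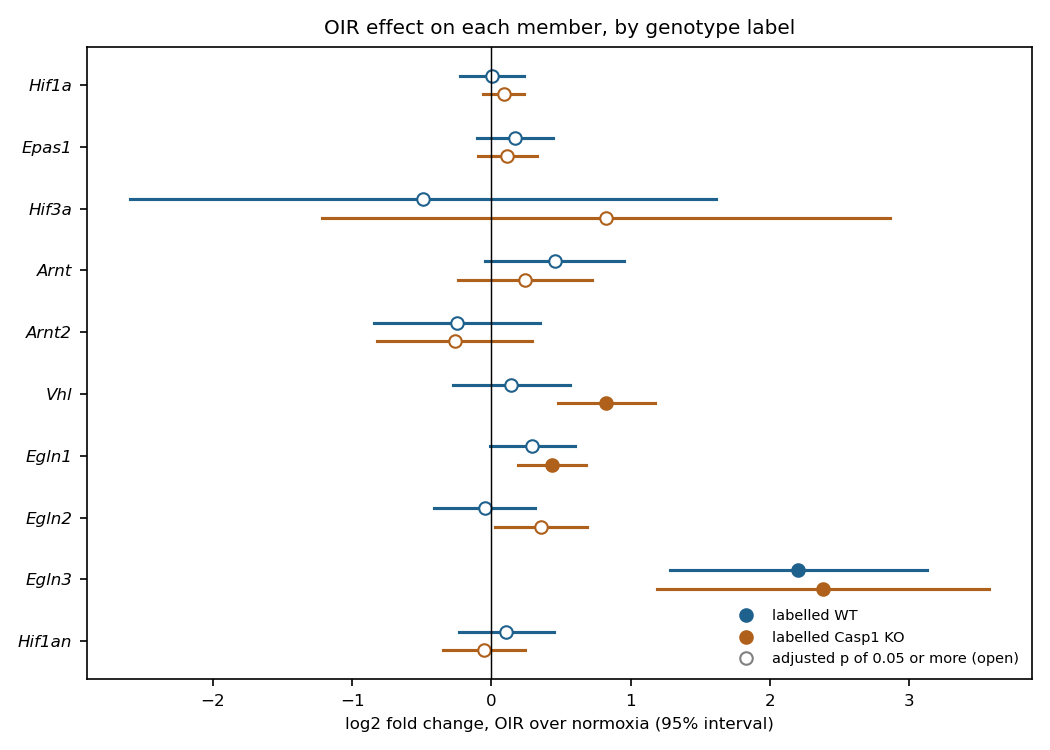
Log2 fold change of OIR over normoxia (horizontal axis) for each of the 10 genes (rows), by genotype label, with the 95% interval of edgeR's quasi-likelihood fit to the 6 libraries of a label; filled points have an adjusted p under 0.05. Egln3 lay at 2.21 and 2.38, Vhl at 0.14 and 0.82, and the intervals of the HIF subunits and Hif1an included 0 under both labels.

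Between the genotype labels at the same condition, no member passed the test. In normoxia no member had an unadjusted p under 0.05 with edgeR and none passed with DESeq2 (1.04% of all genes passed). The CPM of 1 member did not overlap there, Hif1a, as for 12.5% of all genes, with the libraries labelled Casp1 KO at 575 to 619 CPM below those labelled WT at 643 to 670 (log2 fold change -0.12, 95% interval -0.26 to 0.02, adjusted p = 0.655, edgeR). In OIR, where 0.575% of all genes passed, Vhl stood higher in all 3 libraries labelled Casp1 KO than in all 3 labelled WT, a log2 fold change of 0.68 (SE 0.197, adjusted p = 0.0694, edgeR, and 0.000535 before adjustment). Vhl was the 1 member with an unadjusted p under 0.05, a cut that fewer than 2884 of all 22774 genes met. None of the members passed with DESeq2. The adjusted p crossed the threshold with the libraries used. Without WT OIR replicate 3 the adjusted p was 0.00884, with all 12 libraries in one fit 0.0457, and without Casp1 KO OIR replicate 2 it was 0.407. Vhl and Epas1 were the 2 of 10 members without overlap in OIR, as for 11.9% of all genes. Epas1 was lower in all 3 Casp1 KO OIR libraries, at 121 to 147 CPM against 152 to 170 (log2 fold change -0.20, SE 0.142, adjusted p = 0.713, edgeR). These directions rest on genotype labels that the Casp1 reads went against.

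Of 50 genes listed as HIF targets, the members left out, 49 were tested in each label. In WT, 6 rose and 2 fell in OIR, 16.3% of those tested against 3.88% of all genes, with a median log2 fold change of 0.10 against 0.04 over all genes. The 2 that fell were Aldoc and Hk2, both of glycolysis. In Casp1 KO, 22 rose and 1, the transferrin receptor gene Tfrc, fell (46.9%, against 4.64% of all genes), with a median of 0.45 against -0.002. With genes that had 0 reads in a whole normoxia group set to their lowest possible fold, and with 1 gene of at most 3 reads in every WT library left out, the medians were 0.10 and 0.44. The OIR effect differed between the labels for 7 of 49 targets, 14.3% against 1.13% of all genes, all with a higher change in Casp1 KO. Between the labels in normoxia 6 of 48 were lower in Casp1 KO, 12.5% against 1.04% of all genes. Both comparisons share normoxia libraries with the OIR effects. The number in WT was 15 in place of 8 without WT OIR replicate 3, and 13 in WT and 15 in Casp1 KO with all 12 libraries in one fit. This list, like the members and the other lists, was chosen with earlier results of these data known. The shares over all genes also count weakly read genes, as 12327 of the 24484 genes with reads had more than 3 in every library. The shares are thus a description and no test of the list.

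The targets that passed under both labels numbered 6 of the 25 that passed under either, and all 6 rose in both. Apln, which encodes the vessel growth peptide apelin, went from 3.72 ± 2.16 to 31.3 ± 11.02 CPM (SD, n = 3) in WT (log2 fold change 3.26) and from 4.24 ± 1.73 to 24.9 ± 4.03 in Casp1 KO (2.51). Vegfa, the leading vessel growth factor of OIR, went from 87.1 ± 3.65 to 158 ± 34.7 CPM (log2 fold change 0.84) and from 71.5 ± 5.67 to 138 ± 10.6 (0.96). Pfkp, a phosphofructokinase gene, had 288, 301 and 243 CPM in WT normoxia and 569, 536 and 222 in WT OIR. Replicate 3, the library that stood apart, thus lay below all of normoxia, and the log2 fold change was 0.66 with it and 0.98 without it. In Casp1 KO Pfkp went from 230 ± 24.6 to 320 ± 19.4 CPM (SD, n = 3), a log2 fold change of 0.49. Bnip3, a mitophagy gene, rose by 0.48 in WT and 0.45 in Casp1 KO on the log2 scale. Its call was lost without WT normoxia replicate 1 or 3 or WT OIR replicate 1 or 2 (adjusted p 0.104 to 0.271, edgeR), and without replicate 1 or 2 of either Casp1 KO group (0.0723 to 0.153). Pitrm1 and Gm45507 overlap the ends of Pfkp and Bnip3 on the other strand. Adm, which encodes adrenomedullin, had 0 reads in WT normoxia and 32, 38 and 8 in WT OIR, at least 12.4-fold higher against 3 counts per library, and 3, 1 and 3 reads against 22, 9 and 26 in Casp1 KO. The Casp1 KO call of Adm was lost without any 1 library other than OIR replicate 2 (adjusted p 0.0578 to 0.226, edgeR). Stc2, a secreted glycoprotein gene, had 0, 8 and 1 reads in WT normoxia and 10, 37 and 7 in WT OIR, a call lost without WT normoxia replicate 1 (adjusted p = 0.102, edgeR) or WT OIR replicate 2 (0.608). In Casp1 KO it had 0 reads in normoxia and 15, 13 and 18 in OIR, at least 4.61-fold higher. The log2 fold change of Egln3 thus lay between those of Apln and Vegfa in both labels.

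**Figure D4:**
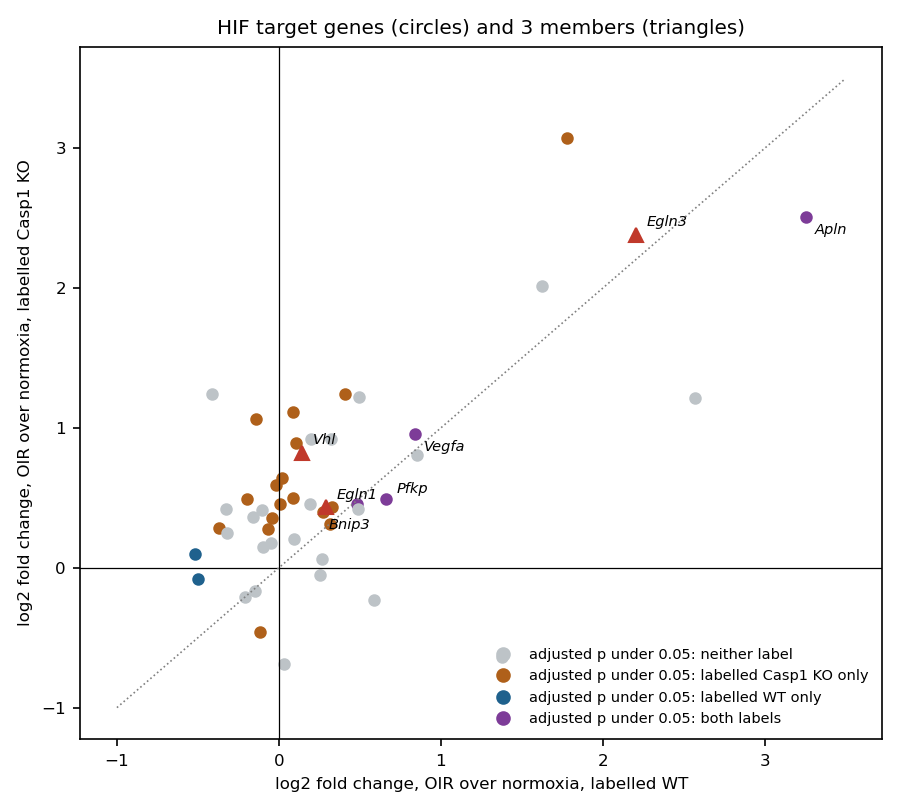
Log2 fold change of OIR over normoxia in the libraries labelled WT (horizontal axis) and Casp1 KO (vertical axis) for 46 HIF target genes (circles, coloured by the label in which the adjusted p was under 0.05) and for Egln3, Egln1 and Vhl (triangles); the dotted line marks equal values. Of the circles, 4 passed under both labels, 17 in Casp1 KO, 2 in WT and 23 in neither, and 4 further targets with 0 reads in a whole group or too few reads to place are not drawn.

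In 4 further lists of the pathway, 0 genes passed in WT, against 3.88% of all genes, and 0 to 3 a list in Casp1 KO, against 4.64%. Of 16 genes of the VHL ubiquitin ligase and of HIF stability, such as Cul2 and Rbx1, 0 passed in edgeR's test of OIR against normoxia in either label. At an unadjusted p under 0.05 there were 1 in WT and 6 in Casp1 KO, and DESeq2 called 1 and 2. Of all genes, at least 2585 of 22387 met that unadjusted cut in Casp1 KO, and fewer than 3198 of 22853 in WT. Of 14 genes for HIF coactivators and partners, 0 passed in WT (3 at an unadjusted p under 0.05, 1 by DESeq2). In Casp1 KO 6 had an unadjusted p under 0.05, DESeq2 called 1, and with edgeR 3 rose (21.4%). They were Jun (log2 fold change 0.60, adjusted p = 0.00102), the coactivator gene Ncoa1 (0.39, adjusted p = 0.0138), whose end 4921501I09Rik overlaps on the other strand, and Cited2 (0.29, adjusted p = 0.0226), whose protein competes with HIF for coactivators and which is also among the 50 targets. Cited2 stood at -0.37 in WT (adjusted p = 0.0833). The other bHLH-PAS factors are of the protein family of HIF. Of these, 0 of 11 passed in WT (1 at an unadjusted p under 0.05, 0 by DESeq2). In Casp1 KO 3 had an unadjusted p under 0.05 and DESeq2 called 1. With edgeR 1 of 10 (10%) passed there, the circadian gene Clock, which fell by 0.32 on the log2 scale (adjusted p = 0.0247). Of 13 tested genes for other oxygen-dependent dioxygenases, 0 passed in WT (2 at an unadjusted p under 0.05, 1 by DESeq2). In Casp1 KO 2 had an unadjusted p under 0.05 and DESeq2 called 1. The histone demethylase gene Kdm5c was the 1 that rose there with edgeR (7.69%, log2 fold change 0.34, adjusted p = 0.019).

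The genes whose levels ran most like those of 3 members were found by Pearson's r of log2(CPM + 1) over the 12 libraries, among 11228 genes with a mean of at least 5 CPM. For Egln3 they were Uimc1 (0.930), Synm (0.927) and Gys1, the glycogen synthase gene (0.918). Gys1 had 8.33 ± 2.7002 CPM (SD, n = 3) in WT normoxia, 15.3 ± 1.77 in WT OIR, 7.43 ± 2.60 in Casp1 KO normoxia and 15.1 ± 1.88 in Casp1 KO OIR. For Hif1a they were Sorl1 (0.896), Klc3 (0.873) and Cul3 (0.854), and for Epas1 1700030J22Rik (0.868), Iqcg (0.862) and Mok (0.853). With ranks in place of levels, Uimc1 stayed among the 3 for Egln3 (Spearman's rho 0.937), Iqcg and Mok for Epas1 (0.881 each), and none of the 3 for Hif1a. The points share their libraries' depth and groups, and the highest of 11228 such values is high by selection, so they are given as a description.

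The 10 genes lie on 7 chromosomes of GRCm38 in the GENCODE vM21 annotation, all as protein coding. Hif1a (chromosome 12, 73901375 to 73947530, plus strand, 15 exons in its longest form) and Egln3 (54178981 to 54203860, minus strand, 5 exons) share chromosome 12, and Hif3a, Arnt2 and Egln2 share chromosome 7. Egln1 spans 124908587 to 124949324 on chromosome 8 (minus strand, 5 exons) and Vhl 113623959 to 113631633 on chromosome 6 (plus strand, 3 exons). No annotated gene overlaps Egln3, Egln1, Vhl or Hif1an on either strand, and 3 of these 4 are the members that passed.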

How the data were processed

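Retinal mRNA was measured in 12 libraries, 3 in each of 4 groups taken from the sample labels. The authors made QuantSeq 3′ libraries, read them as single 75 bp reads, aligned them to mm10 and counted them per gene, and the deposited values are raw read counts per gene symbol. The submitters' processing notes name STAR 2.7.5a, HTSeq 0.6.1 and edgeR. The gene annotation, strand setting and treatment of reads matching several places are not given in the sources used here. Every column was mapped to a sample (0 were not), and 0 entries named no gene.

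Counts were fitted in R 4.3.3 with edgeR 4.0.16 (TMM, glmQLFit and glmQLFTest of the older method, keeping every gene with 1 count or more), with Benjamini-Hochberg adjustment over all genes and a threshold of 0.05. A comparison of one group with another used their 6 libraries alone, and the interaction and the effect over both labels used all 12. In these fits the p-values equal those of a normal distribution of log2 fold change over SE. The spread was therefore shared across genes and not each gene's own. Levels are CPM on one TMM scale over the 12 libraries. Shares of reads and CPM were compared by two-sided exact permutation tests in scipy 1.17.1, where 3 against 3 allows no p under 0.1. Scripts were tested on simulated data. Depth ran from 3391203 to 22815830 counts. Gene positions came from GENCODE vM21 and start sites from RefSeq.

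The members and all gene lists were chosen with earlier results of these data known. The 10 members were all described. From each list the genes named are those that passed under both labels (at most 6), or, with none, those that passed under either (at most 3). For Hif1a, Epas1 and Egln3 the 3 most alike genes were named. Aldoc, Hk2 and Tfrc were named after their values were seen. Alternatives were DESeq2's size factors, library size alone, filterByExpr, at least 10 counts in every library, DESeq2 1.42.0, edgeR's newer quasi-likelihood method, a fit to all 12 libraries, the replicate number as a block and each library left out. Replicate numbers are shared across groups, but deviations of libraries with the same number did not correlate, so they were not taken as pairs.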

Additional observations from a re-analysis of the deposited data

How the results depend on the processing

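The number of members called in WT was 1 under each setting except at least 10 counts in every library, where Egln3 was not tested and it was 0. HIF targets called in WT numbered 4 with filterByExpr and 13 with all 12 libraries in one fit, and 6 to 15 with 1 library left out. In Casp1 KO they numbered 15 with all 12 libraries in one fit. With 1 library left out, members called numbered 1 to 3 in Casp1 KO, 1 to 3 over both labels and 0 to 1 between labels in OIR, where all 12 libraries in one fit also gave 1 (Vhl). The lone calls came without Casp1 KO normoxia replicate 2 or OIR replicate 3, without Casp1 KO normoxia replicate 2 or OIR replicate 2, and without WT OIR replicate 3.

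Same-numbered libraries correlated at -0.043 to 0.067 in their deviations, and differently numbered ones at -0.087 to 0.103. The replicate numbers were thus not used as pairs, but 3 libraries a group are too few to exclude a pairing. With the replicate block, Hif1a in WT was -0.00021 on the log2 scale in place of 0.002, members called numbered 1 in WT, 3 in Casp1 KO and 3 over both labels, and Egln3 in WT was 2.42. With the newer quasi-likelihood method Hif3a over both labels was -0.059.

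Other signs turned only for members that had not passed, with 1 library left out. The log2 fold changes then ranged from -0.056 to 0.044 for Hif1a and -0.20 to 0.051 for Egln2 in WT, -0.15 to 0.087 for Hif1an and -0.027 to 0.52 for Arnt in Casp1 KO, and -0.12 to 0.42 for Hif3a and -0.020 to 0.10 for Hif1an over both labels. In the interaction they ranged from -0.16 to 0.028 for Epas1, -0.34 to 1.01 for Egln3, -0.49 to 0.058 for Arnt, -0.29 to 0.18 for Arnt2 and -0.021 to 0.27 for Egln1. Between labels in normoxia they ranged from -0.048 to 0.14 for Vhl, -0.012 to 0.11 for Egln1, -0.15 to 0.35 for Arnt and -0.049 to 0.30 for Arnt2, and in OIR from -0.37 to 0.18 for Arnt, -0.17 to 0.28 for Arnt2 and -0.071 to 0.049 for Hif1an. The cause was not tested. Depth limits Hif3a and Egln3 most, at 0 to 48 and 0 to 78 reads a library.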
